A study of Mus musculus with 41 samples.

Results

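The genes described here are Cdkn1a, Cdkn1b, Ccnd1, Ccnd2, Ccnd3, Cdk4, Cdk6 and Myc, a set of 8 genes that act at the entry of the cell into the division cycle. They were chosen by symbol, and all 8 are listed under the same Ensembl identifier in all 3 deposited tables, which together hold 14133 genes, 12694 of them in every table. RNA-seq was carried out in 41 libraries of MEEC, a wild-type (WT) line of mouse embryonic endocardial cells, the cells that line the inside of the heart. The libraries form 13 groups in 3 experiments, and every group carries the same WT genotype.

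In the first experiment MEEC were laid over OP9 stromal feeder cells that expressed the Notch ligand Dll4, the Notch ligand Jag1 or GFP, for 24 h or for 6 h (6 groups, n = 3 libraries each). The feeders were at 90% confluence and MEEC were seeded at 25% for 24 h and at 50% for 6 h, so time and seeding density cannot be told apart. In the second experiment MEEC spent 24 h in 20 µM RO4929097, an inhibitor of the gamma-secretase that frees the active Notch fragment, or in its vehicle DMSO, and then 6 h over OP9-GFP (n = 4 each). In the third, no feeders were used: MEEC were grown on wells coated with recombinant ligand plus 20 µM RO4929097 (rDLL4+RO, rJAG1+RO), on recombinant ligand plus DMSO (rDLL4, rJAG1), or on wells without ligand plus DMSO (n = 3 each). These cultures ran for 38 h, of which the last 14 h were without serum. The labels name 1 cell line and do not state that separate cultures underlie the libraries within a group, so the p-values measure the spread between these libraries, which may be technical.

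Cells commit to division in the G1 phase, when D-type cyclins (the products of Ccnd1, Ccnd2 and Ccnd3) bind the kinases Cdk4 and Cdk6 and the pair phosphorylates the retinoblastoma protein, which releases E2F transcription factors. The inhibitors encoded by Cdkn1a and Cdkn1b bind cyclin-kinase complexes and hold the cell in G1. Cdkn1a is the textbook target of the tumour suppressor p53, while Myc encodes a transcription factor that drives cell growth and binds the E-box sequence. In the heart, Notch signalling in endocardial cells is known for its role in valve formation and in signalling to the growing muscle wall, and in other cell types cyclin genes and Myc have been described as Notch targets.

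Promoter sequences from RefSeq (build GRCm38.p6, from 250 bases before the transcription start to 50 after it) were at hand for 5 of the 8 genes. They are printed for the inhibitor gene Cdkn1a, which was called in more comparisons than any other member, and for the kinase gene Cdk4, which was called in none of the 15 comparisons between groups, because these windows hold the motifs of the factors named above. Cdkn1a has 2 windows, of which the second (chr17:29093519-29093818, plus strand) holds no p53 full site and is not printed. The capitals mark a p53 full site in the first Cdkn1a window (chr17:29090729-29091028, plus strand) and E-boxes (CACGTG) in the Cdk4 window (chr10:127063285-127063584, plus strand), both read 5′ to 3′.
Cdkn1a: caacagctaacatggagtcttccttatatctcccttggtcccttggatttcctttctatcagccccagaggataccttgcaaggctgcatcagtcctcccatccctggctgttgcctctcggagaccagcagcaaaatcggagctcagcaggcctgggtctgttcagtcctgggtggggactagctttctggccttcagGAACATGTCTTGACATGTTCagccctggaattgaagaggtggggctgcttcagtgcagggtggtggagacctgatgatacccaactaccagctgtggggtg
Cdk4: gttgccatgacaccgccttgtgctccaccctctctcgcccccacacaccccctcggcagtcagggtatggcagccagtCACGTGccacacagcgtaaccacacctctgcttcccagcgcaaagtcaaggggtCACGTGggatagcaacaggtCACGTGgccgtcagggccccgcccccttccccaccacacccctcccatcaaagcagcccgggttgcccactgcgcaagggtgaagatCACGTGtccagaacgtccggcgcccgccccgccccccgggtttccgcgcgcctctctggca
The p53 site, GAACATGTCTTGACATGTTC, begins at position -51 from the start and was found with up to 1 mismatch to the full consensus, which 0.0883% of the 32851 promoter windows hold. Cdk4 has 4 E-boxes, at -172, -118, -98 and -11, and the Cdk6 window has 1, at -220, where 7.15% of all windows hold at least 1. The RBPJ core GTGGGAA (6.38% of windows), the AP-1 motif TGANTCA (7.81%) and the E2F core TTTCGCGC (0.323%) have no match on either strand in the windows of these 5 genes. A match is a description of letters, not evidence of binding. On build GRCm38 the genes lie at chromosome 17, 29090976 to 29100727 (Cdkn1a, plus strand), chromosome 6, 134920401 to 134925513 (Cdkn1b, plus), chromosome 7, 144929931 to 144939925 (Ccnd1, minus) and chromosome 6, 127125162 to 127152193 (Ccnd2, minus). Ccnd3 lies at chromosome 17, 47505051 to 47599691 (plus), Cdk4 at chromosome 10, 127063534 to 127067920 (plus), Cdk6 at chromosome 5, 3341485 to 3531008 (plus) and Myc at chromosome 15, 61985391 to 61990374 (plus).

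Libraries held 14101202 to 16821361, 19432983 to 25171944 and 11197893 to 34188335 reads in the 3 experiments, and the least read member in any library, Ccnd1 in an rJAG1+RO library, still rested on 178 reads. Some libraries stood apart from their group. Genes were counted where a library lay at least 2-fold from the mean log2 signal of its group mates. At 6 h over OP9, the libraries numbered 2 had 162 (OP9-Dll4), 140 (OP9-Jag1) and 256 (OP9-GFP) such genes, against 37 to 122 in the other 6 h libraries. DMSO library 3 of the coated-ligand experiment had 226 such genes, against 51 and 58 in DMSO libraries 1 and 2. Notch targets checked the treatments: of Hes1, Hey1, Hey2, Heyl, Nrarp and Notch3, 5 of 6 rose on each coated ligand, 5 of 6 fell when RO4929097 was added to either ligand, 4 of 6 rose on OP9-Jag1 and 3 of 6 on OP9-Dll4 at 24 h, 3 of 6 rose on OP9-Jag1 at 6 h, and 4 of the 4 tested fell with RO4929097 before OP9-GFP. On OP9-Dll4 at 6 h, limma and edgeR called 0 of 6 Notch targets, with 5 at an unadjusted p under 0.05. The share of all genes called in each of these comparisons is given below. Of 12 endothelial and endocardial markers, 6, 5 and 5 were listed in the 3 experiments, at a summed normalized signal of 27.1 to 117. On rJAG1 these included Tek (mean 48.1), Kdr (12.6), Nfatc1 (5.96) and Eng (1.24). Pecam1, Cdh5, Tie1, Emcn, Erg and Plvap were not analysed here, so they give no check of the cell type, which is taken from the labels. OP9 are mouse cells too, the labels do not say that they were removed before RNA extraction, and stromal markers chosen for OP9 summed to a signal of 3336 to 6301 over feeders and 3067 to 4975 without feeders. These markers therefore do not separate feeder from MEEC RNA, and how much of a gene's signal in co-culture came from feeders was not tested. Dll4 was not listed in any experiment, so its level over OP9-Dll4 gives no check of the feeders. Jag1 was listed, and at 24 h it read 61.7 to 67.9 on OP9-Jag1, 58.2 to 61.7 on OP9-Dll4 and 40.5 to 46.6 on OP9-GFP. At 6 h it read 47.9 to 56.9, 43.1 to 60.9 and 29.7 to 43.4 in the same order. OP9-Dll4 over OP9-Jag1 differed by -0.14 at 24 h and -0.07 at 6 h for Jag1, called at neither time. Whether this Jag1 signal came from feeders or from MEEC was not tested. In bulk RNA, fewer cells of a kind and less RNA per cell cannot be told apart.

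All values below are the authors' normalized signal, the reads scaled per library, and are compared within an experiment. Set against exon length, Cdk4 was the most abundant member in every library (107 to 148 units per kb of exon) and in the first experiment Myc (41.6 to 79.2 units per kb) and Ccnd2 (15.9 to 67.5 units per kb) came next. At 24 h Ccnd2 averaged more than Myc on OP9-Jag1 (59.9 against 43.4 units per kb) and on OP9-Dll4 (54.3 against 50.0), and at 6 h Myc averaged more in all 3 groups. The inhibitor Cdkn1b stood at 14.2 to 19.1 units per kb in the first experiment and at 28.1 to 50.2 in the third, a level set across tables that were normalized separately. Over the libraries of the third experiment, Ccnd2 spanned 5.07-fold from its lowest to its highest library, Ccnd1 4.43-fold, Cdkn1a 3.58-fold and Myc 3.43-fold. Cdk4 spanned 1.27-fold there, Ccnd3 1.31-fold, Cdk6 1.67-fold and Cdkn1b 1.78-fold. The changes that passed the test fell on Cdkn1a, Ccnd2 and Ccnd1. That test was limma's on log2(signal + 1), fitted over all genes of a table, with adjusted p under 0.05 as the limit for a call. Differences are given on that log2 scale with their standard error (SE), which understates the change of low genes.

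Ccnd2, which encodes the D-type cyclin with the highest signal per kb in every library of the first experiment, rose on both coated ligands and fell when RO4929097 was added to either. On coated ligand it read 203, 152 and 203 on rJAG1 and 148, 138 and 159 on rDLL4, against 55.8, 45.2 and 115 on DMSO without ligand. All 6 ligand libraries lay above all 3 DMSO libraries, and DMSO library 3 stood above both of its group mates. The log2 fold change over DMSO was 1.46 ± 0.24 on rJAG1 (SE, adjusted p = 0.00082) and 1.14 ± 0.24 on rDLL4 (adjusted p = 0.014), so Ccnd2 rose on both. On rDLL4 the call was lost without DMSO library 1 (adjusted p = 0.066), DMSO library 2 (0.064), rDLL4 library 1 (0.056) or rDLL4 library 3 (0.063), and in a fit of these 2 groups alone (0.14). The difference between rDLL4 and rJAG1 was -0.32 (95% interval -0.83 to 0.19, adjusted p = 0.83).

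With RO4929097 in the medium, Ccnd2 read 46.9, 40.0 and 51.9 on rJAG1+RO, against 203, 152 and 203 on rJAG1, and 42.1, 42.5 and 53.3 on rDLL4+RO, against 148, 138 and 159 on rDLL4. No library overlapped between inhibited and uninhibited cultures. Ccnd2 fell by 1.98 ± 0.24 on the log2 scale on rJAG1 (adjusted p = 2.8e-05) and by 1.67 ± 0.24 on rDLL4 (adjusted p = 0.00027), in each of the 6 fits that left out 1 library. Set against DMSO without ligand, the inhibited cultures differed by -0.52 ± 0.24 (rJAG1+RO, adjusted p = 0.52) and -0.53 ± 0.24 (rDLL4+RO, adjusted p = 0.41), and their ranges overlapped the DMSO range of 45.2 to 115.

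Over feeders at 24 h, Ccnd2 read 635, 543 and 514 on OP9-Jag1 and 587, 465 and 480.2 on OP9-Dll4, against 349.9, 307 and 285 on OP9-GFP. The ligand libraries all lay above the OP9-GFP libraries. The log2 differences were 0.84 ± 0.21 for Jag1 and 0.70 ± 0.21 for Dll4, and neither passed (adjusted p = 0.052 and 0.26). Same-numbered libraries deviated together within a time point, and with the number as a block within each time both were called (adjusted p = 1.7e-10 and 6.2e-09), as they were with 1 block effect per number over both times (0.00042 and 0.0046). At 6 h the readings were 368, 213 and 304 on OP9-Jag1 and 329, 182 and 259 on OP9-Dll4, against 246, 149.7 and 193 on OP9-GFP. The groups overlapped, yet in every number the order was Jag1 above Dll4 above GFP. Differences were 0.58 ± 0.21 and 0.37 ± 0.21 (adjusted p = 0.71 and 1.00), or adjusted p = 1.3e-07 and 5.1e-05 with the block within each time. With 1 block effect per number over both times, Jag1 alone was called (0.036, against 0.37 for Dll4). Whether the ligand effect was larger at 24 h than at 6 h gave 0.26 ± 0.30 for Jag1 and 0.32 ± 0.30 for Dll4 (adjusted p = 1.00 for both, 0.021 and 0.017 with the block within each time).

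Ccnd2 also rose with time in co-culture: over OP9-GFP it read 349.9, 307 and 285 at 24 h, against 246, 149.7 and 193 at 6 h (log2 fold change 0.70 ± 0.21, adjusted p = 0.031). This rise was lost without OP9-GFP 6 h library 2 (adjusted p = 0.15) or 3 (0.070), without OP9-GFP 24 h library 1 (0.11) or 2 (0.073), and with quantile normalization (0.086). After RO4929097, MEEC over OP9-GFP read 200.4, 129, 119.6 and 154, against 259, 224, 221 and 227 after DMSO. Every inhibited library lay below every vehicle library, with a difference of -0.65 ± 0.14 and adjusted p = 0.061, or 0.0027 with the library number as a block. Without RO4929097 library 1, whose Ccnd2 signal was the highest of that group, it was called (-0.79, adjusted p = 0.0059).

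**Figure D1:**
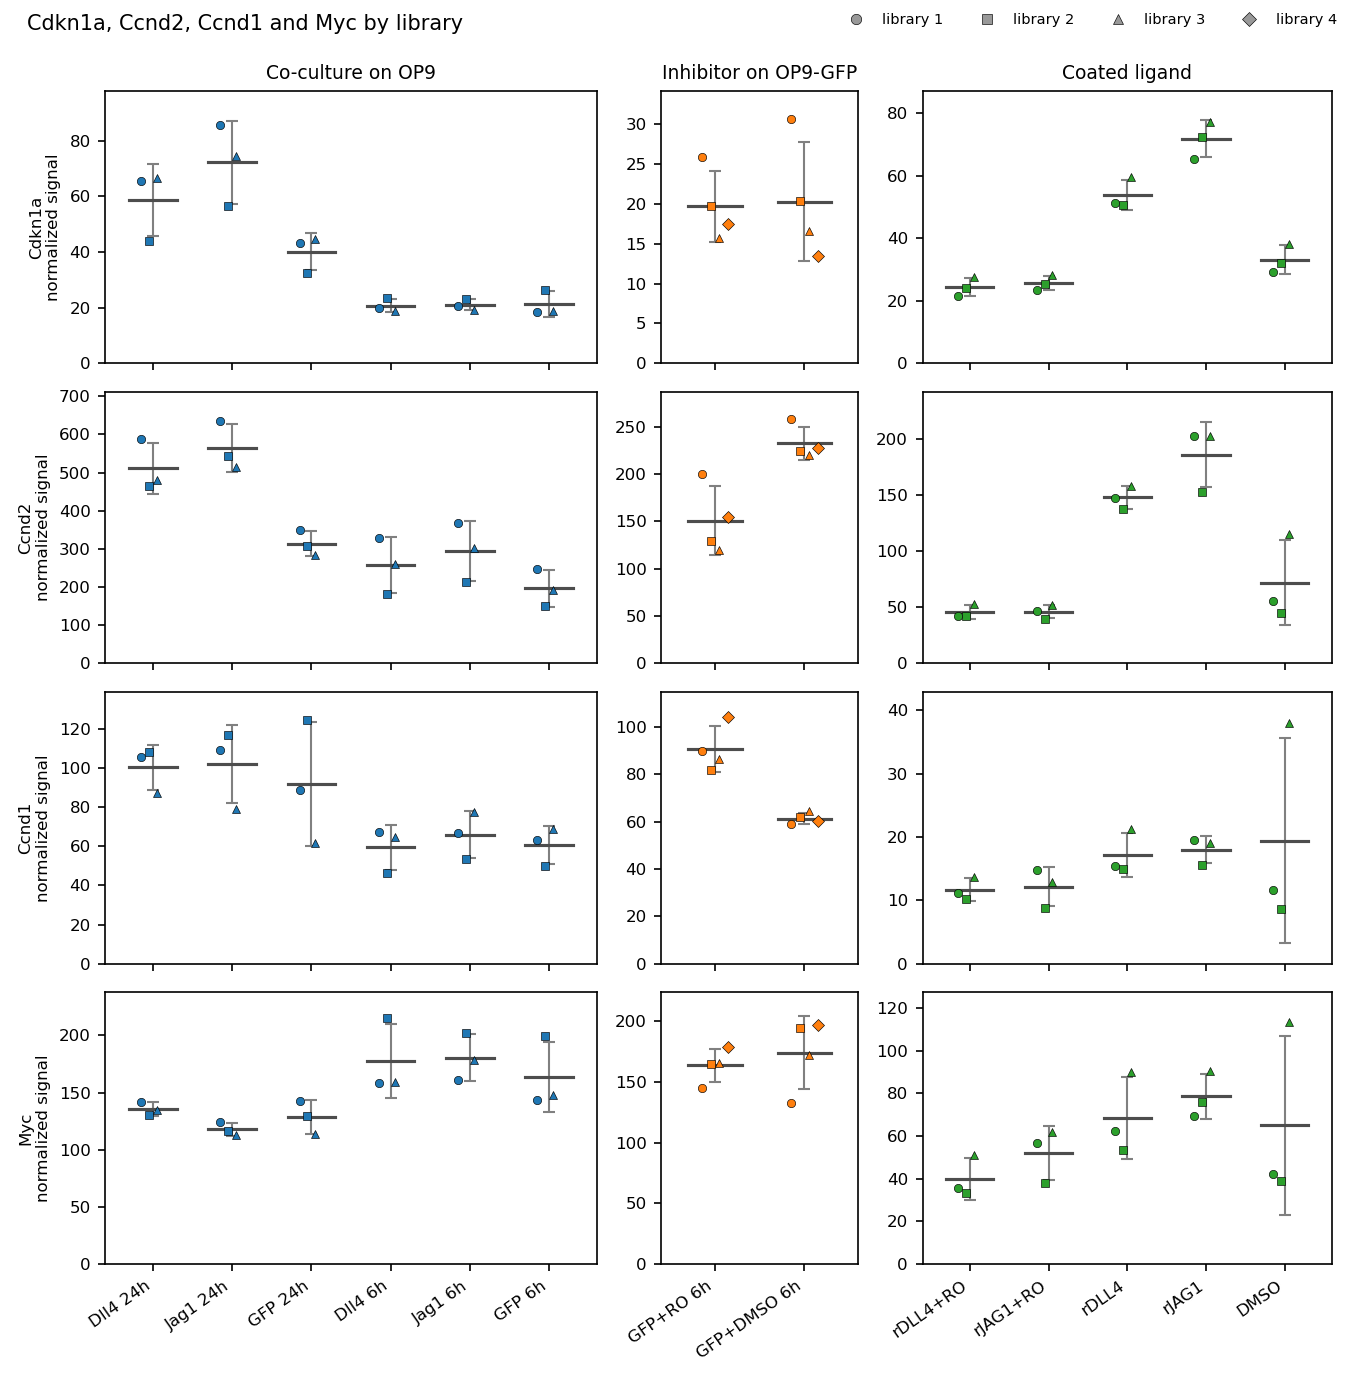
Normalized signal (y axis, linear from 0) of Cdkn1a, Ccnd2, Ccnd1 and Myc in each library by group (x axis), with 1 column of panels per experiment; the horizontal line is the group mean, the bar is ± 1 SD and the symbol gives the library number (n = 3, or 4 in the middle column). Ccnd2 and Cdkn1a are high on rJAG1 and rDLL4 and low with RO4929097, while DMSO library 3 stands at 115 for Ccnd2, 38.0 for Ccnd1 and 114 for Myc.

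Ccnd1, which encodes the D-type cyclin best known as a target of growth factor signalling, differed in the opposite direction to Ccnd2 in the second experiment. After RO4929097 it read 90.1, 81.9, 86.5 and 104, against 58.9, 62.0, 64.4 and 60.2 after DMSO. The groups did not overlap, and the means were 90.7 ± 9.63 and 61.3 ± 2.4 (SD, n = 4). Ccnd1 rose by 0.55 ± 0.07 on the log2 scale (adjusted p = 0.0068), and the call held whichever of the 8 libraries was left out. It was 1 of 8 members called in a comparison in which 0.909% of all genes were called, 0.223% of them higher.

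On coated ligand the same inhibitor left Ccnd1 lower, without passing the test: 14.8, 8.82 and 12.9 on rJAG1+RO against 19.5, 15.5 and 19.0 on rJAG1, and 11.2, 10.2 and 13.6 on rDLL4+RO against 15.3, 14.9 and 21.2 on rDLL4. Again neither pair of groups overlapped, and the differences were -0.55 ± 0.36 (adjusted p = 0.33) and -0.51 ± 0.36 (adjusted p = 0.44). On rDLL4 it was called in a fit of the 2 groups alone (adjusted p = 0.043). With the number as a block neither difference was called, unless DMSO library 3 was also left out (adjusted p = 0.0026 on rJAG1 and 0.0058 on rDLL4). Ccnd1 without ligand read 11.6, 8.57 and 38.0 on DMSO. Library 3 of that group lay above every other library of the experiment, and rJAG1 over DMSO differed by 0.18 ± 0.36 with it and by 0.79 without it (adjusted p = 0.85 and 0.017). In co-culture Ccnd1 read 109, 117 and 79.3 on OP9-Jag1 and 106, 108 and 87.3 on OP9-Dll4, against 88.7, 125 and 61.7 on OP9-GFP at 24 h, all overlapping (differences of 0.19 ± 0.22 and 0.18 ± 0.22, adjusted p = 0.92 and 1.00). At 6 h its group means were 66.0 ± 12.0 on OP9-Jag1, 59.5 ± 11.5 on OP9-Dll4 and 60.7 ± 9.65 on OP9-GFP. Over OP9-GFP, 24 h against 6 h differed by 0.54 ± 0.22 (adjusted p = 0.090), or by 0.80 without OP9-GFP 24 h library 3 (adjusted p = 0.021).

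Ccnd3, whose cyclin pairs with the same kinases, varied least of the 3 cyclin genes. It passed in 0 of the 15 comparisons between groups by limma and by edgeR, with 3 at an unadjusted p under 0.05, and its log2 differences ran between -0.19 and 0.35. On coated ligand it read 39.4, 44.4 and 43.2 on rJAG1, against 46.4, 48.3 and 50.3 on DMSO, which do not overlap (-0.19 ± 0.08, adjusted p = 0.16). Over OP9-GFP its means were 90.9 ± 7.10 at 24 h and 71.6 ± 13.5 at 6 h (0.35 ± 0.14, adjusted p = 0.087). This was called without OP9-GFP 6 h library 1 (adjusted p = 0.022) and with the number as a block (0.0090).

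Because the 3 cyclins compete for the same kinases, their make-up was set out per kb of exon. On rJAG1, Ccnd2 made up 69.4 ± 2.94% of the summed D-cyclin signal and on rDLL4 63.8 ± 1.88%, against 43.3 ± 3.68% on DMSO (SD, n = 3). With RO4929097 the Ccnd2 share was 37.9 ± 1.87% on rJAG1+RO and 38.0 ± 2.84% on rDLL4+RO, and Ccnd3 held the largest mean share, 42.4 ± 3.80% and 42.7 ± 4.09%. In rDLL4+RO library 3, Ccnd2 (40.9%) exceeded Ccnd3 (38.1%). The sum itself was 28.4 ± 3.37 units per kb on rJAG1 and 24.7 ± 2.22 on rDLL4, against 17.3 ± 7.62 on DMSO. Before OP9-GFP the make-up differed with RO4929097 more than the sum did: Ccnd1 held 44.9 ± 3.91% and Ccnd2 36.9 ± 4.74% after RO4929097, against 28.7 ± 1.59% and 54.3 ± 2.82% after DMSO, with sums of 43.1 ± 5.23 and 45.5 ± 1.15 units per kb (n = 4). The ranges of both shares did not overlap between these groups, and those of the sums did. Stromal markers summed to 3404 to 4098 after RO4929097, against 3757 to 4712 after DMSO, and their part in these values was not tested. At 24 h over feeders, Ccnd2 held 64.7 ± 2.33% on OP9-Jag1 and 62.4 ± 2.95% on OP9-Dll4, against 53.2 ± 5.46% on OP9-GFP. These shares are descriptions of the tested values above and were not tested themselves.

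**Figure D2:**
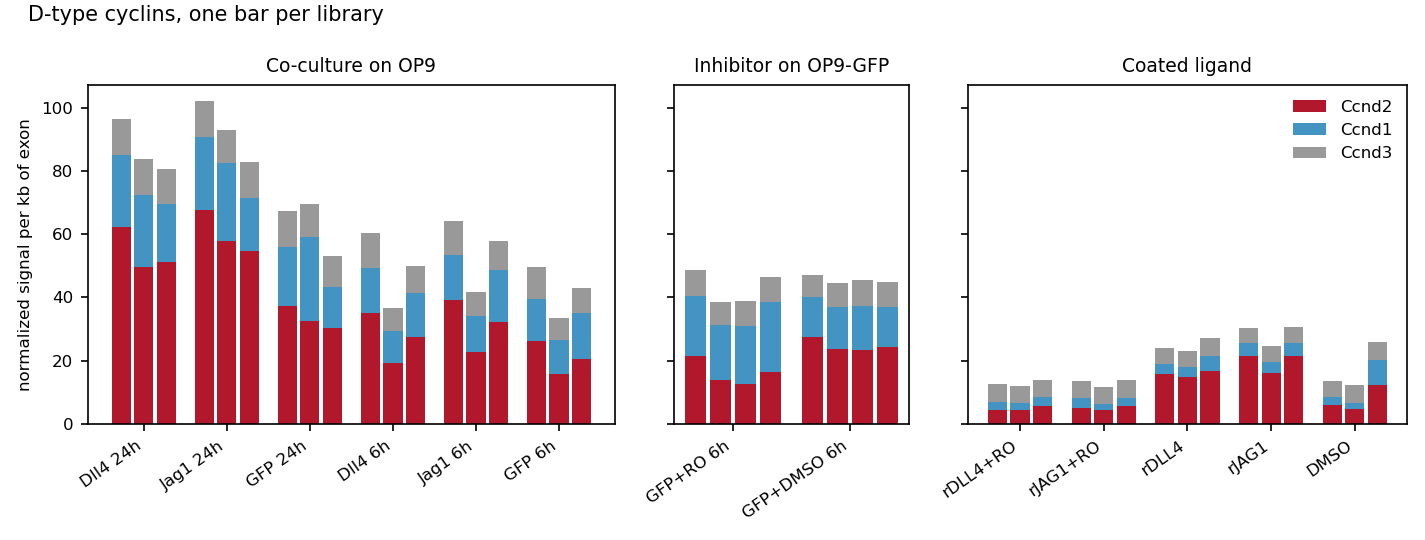
Normalized signal per kb of exon of Ccnd2, Ccnd1 and Ccnd3 (y axis), stacked in 1 bar per library, by group (x axis) in the 3 experiments. The Ccnd2 part is the tallest on rJAG1 (mean 69.4% of the sum) and rDLL4 (63.8%). After RO4929097 before OP9-GFP the Ccnd1 part is the tallest on average (44.9%), though in library 1 Ccnd2 (43.8%) exceeds Ccnd1 (39.3%).

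Cdk4 and Cdk6, the kinases that the D-type cyclins activate, passed the test in 0 of the 15 comparisons by limma and by edgeR, each with 1 at an unadjusted p under 0.05. Cdk4 stayed between 348 and 480.4 in all libraries of the 3 experiments, and its log2 differences lay between -0.13 and 0.14. With the number as a block it was called for OP9-GFP at 24 h over 6 h (0.14, adjusted p = 0.042). On rJAG1 over DMSO it differed by 0.01 (95% interval -0.18 to 0.19) and under RO4929097 before OP9-GFP by 0.04 (-0.08 to 0.16). Cdk6 read 90.9, 93.5 and 98.5 on rDLL4+RO, against 114, 115 and 137 on rDLL4. The libraries did not overlap, but the difference of -0.37 ± 0.16 did not pass (adjusted p = 0.19). On rJAG1+RO its readings of 107, 86.5 and 97.8 overlapped those on rJAG1 of 125, 90.1 and 126 (-0.21 ± 0.16, adjusted p = 0.40). In co-culture Cdk6 lay between 181 and 211 in all 18 libraries, and after RO4929097 its mean was 175 ± 10.4, against 197 ± 24.4 after DMSO (-0.17 ± 0.08, adjusted p = 0.53).

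**Figure D3:**
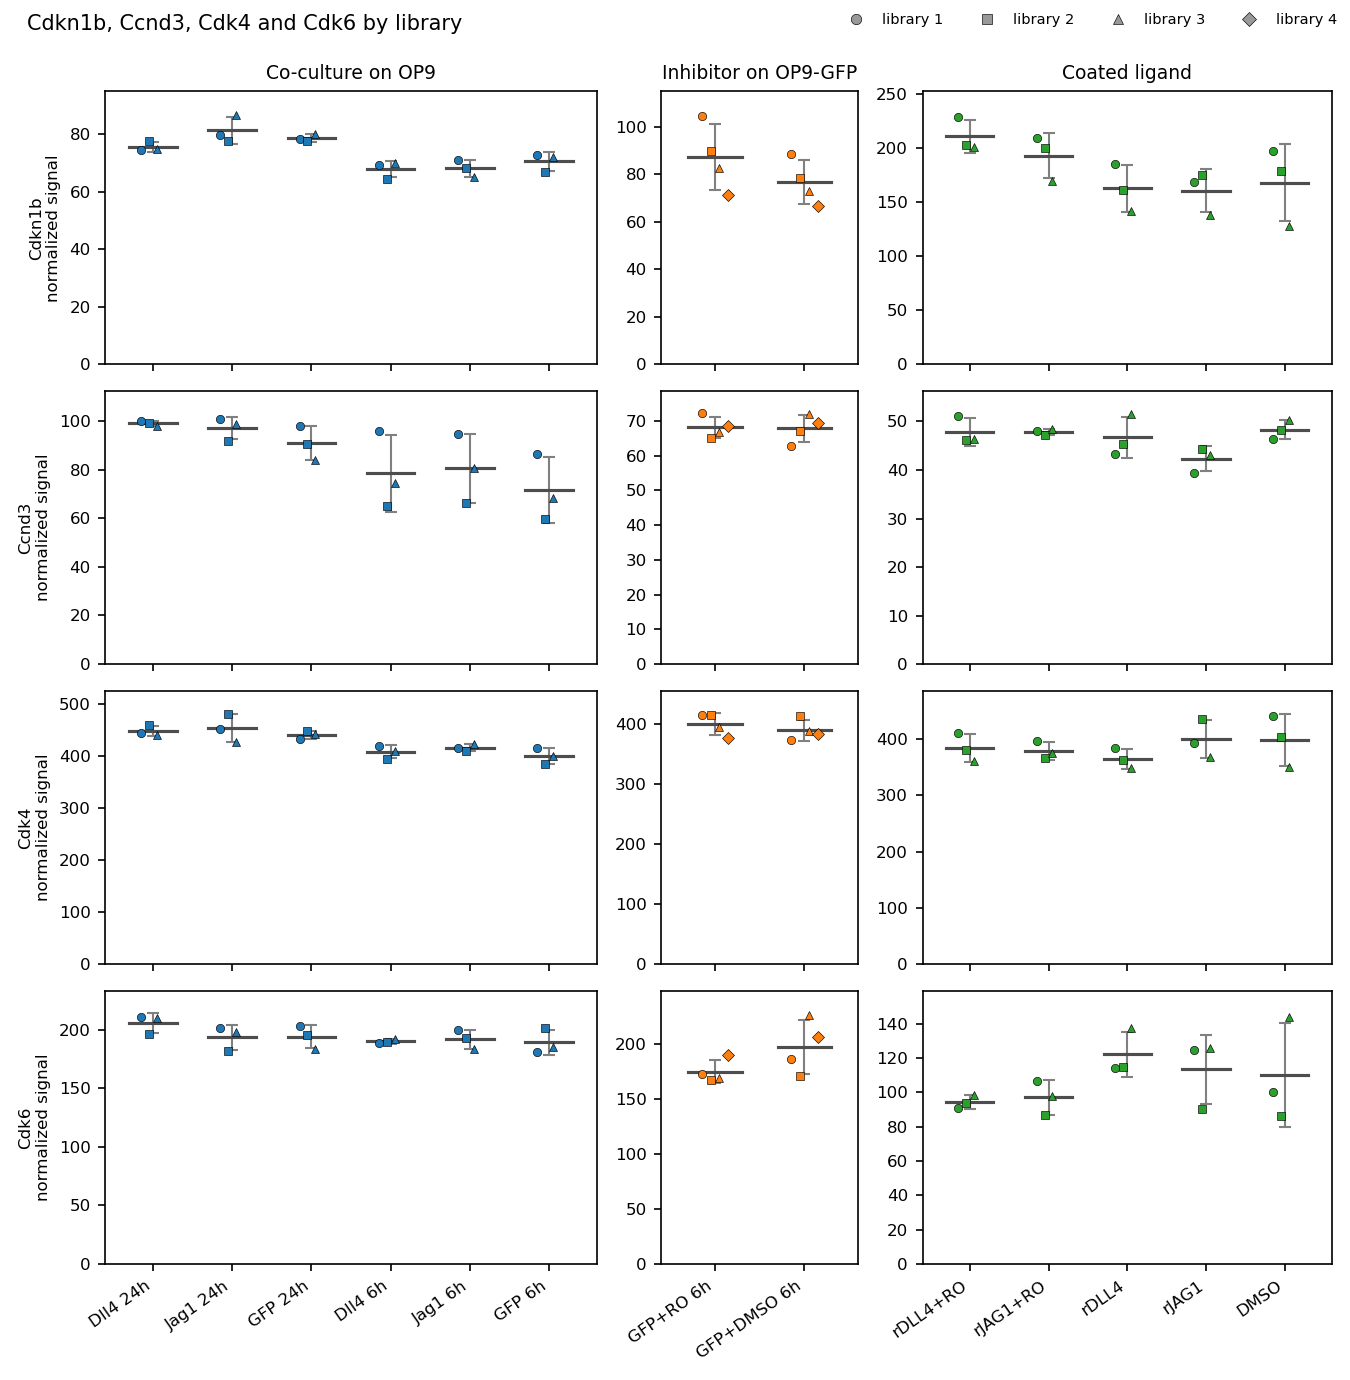
Normalized signal (y axis, linear from 0) of Cdkn1b, Ccnd3, Cdk4 and Cdk6 in each library by group (x axis), with 1 column of panels per experiment; the horizontal line is the group mean, the bar ± 1 SD and the symbol the library number (n = 3, or 4 in the middle column). None of these 4 genes passed the test in any of the 15 comparisons, and Cdk4 lies between 348 and 480.4 throughout.

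Cdkn1a, the inhibitor gene whose product also binds the replication clamp, passed the test in 6 of 15 comparisons, more than any other member. On coated ligand it read 65.5, 72.5 and 77.3 on rJAG1 and 51.3, 50.7 and 59.5 on rDLL4, against 29.4, 32.0 and 38.2 on DMSO. The 3 groups did not overlap. Cdkn1a rose 2.14-fold on rJAG1 (95% interval of the log2 change 0.85 to 1.34, adjusted p = 1.1e-05) and 1.61-fold on rDLL4 (0.44 to 0.93, adjusted p = 0.0026), whichever of the 6 libraries of a comparison was left out. Between the ligands it was lower on rDLL4 by value, -0.41 ± 0.11, with adjusted p = 0.24, or 0.0042 with the library number as a block.

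RO4929097 brought Cdkn1a to 23.6, 25.3 and 28.2 on rJAG1+RO, against 65.5, 72.5 and 77.3 on rJAG1, and to 21.6, 24.0 and 27.6 on rDLL4+RO, against 51.3, 50.7 and 59.5 on rDLL4. It fell by 1.45 ± 0.11 on rJAG1 (adjusted p = 3.3e-07) and by 1.11 ± 0.11 on rDLL4 (adjusted p = 1.2e-05). Stromal markers moved in both directions in these feeder-free cultures. Of the 9 listed, 2 rose on rJAG1 (Col1a1, 0.59 ± 0.09, and Cxcl12, 0.56 ± 0.13) and 1 fell (Lpl, -0.64 ± 0.15), and 1 rose on rDLL4 (Col1a1, 0.53 ± 0.09). In these comparisons over DMSO, 9.58% of all genes were called on rJAG1 and 3.5% on rDLL4. With RO4929097, 2 of the markers rose and 3 fell on each ligand, where 18.4% of all genes were called on rJAG1 and 10.7% on rDLL4. Lpl rose by 0.79 on rJAG1 and 0.50 on rDLL4 and Vcam1 by 0.65 and 0.60, while Col1a1 differed by -0.72 on both. Their sums were 3474 to 3842 on rJAG1+RO and 3437 to 3863 on rDLL4+RO, 4328 to 4975 on rJAG1 and 4311 to 4742 on rDLL4, and 3067 to 3955 on DMSO. Col1a1 was the largest part of these sums, with means of 2046, 1958, 3373, 3232 and 2239 in the same order. No OP9 feeders were in these cultures, and how the marker changes relate to those of Cdkn1a and Ccnd2 was not tested. For Cdkn1a, all 6 inhibited libraries also lay below the lowest DMSO library at 29.4. Against DMSO the differences were -0.35 ± 0.11 on rJAG1+RO (adjusted p = 0.21) and -0.43 ± 0.11 on rDLL4+RO (adjusted p = 0.085), or 0.0050 and 0.0011 with the number as a block.

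Over OP9-GFP feeders, Cdkn1a rose with time. On OP9-GFP it read 43.1, 32.5 and 44.7 at 24 h, against 18.3, 26.5 and 18.8 at 6 h, a rise of 0.89 ± 0.18 (adjusted p = 0.0033) that held whichever of these 6 libraries was left out. At 24 h it read 85.7, 56.4 and 74.4 on OP9-Jag1 and 65.5, 43.9 and 66.7 on OP9-Dll4, against 43.1, 32.5 and 44.7 on OP9-GFP. The OP9-Jag1 libraries lay above all OP9-GFP libraries, and Cdkn1a rose by 0.83 ± 0.18 (adjusted p = 0.022). That call was lost without OP9-GFP 24 h library 1 (adjusted p = 0.053) or 2 (0.15) and without OP9-Jag1 24 h library 1 (0.14) or 3 (0.11). On OP9-Dll4 the difference was 0.53 ± 0.18 (adjusted p = 0.38, or 6.9e-05 with the number as a block within each time), and OP9-Dll4 library 2 overlapped the OP9-GFP range.

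At 6 h the 9 libraries over feeders lay between 18.3 and 26.5 with no order by ligand, and the differences were 0.00 ± 0.18 for Jag1 and -0.02 ± 0.18 for Dll4. The ligand effect at 24 h exceeded that at 6 h by 0.82 ± 0.26 for Jag1 and 0.55 ± 0.26 for Dll4, with adjusted p = 1.00 for both, or 0.00019 and 0.018 with the block within each time. After RO4929097 and 6 h over OP9-GFP, Cdkn1a read 25.9, 19.7, 15.7 and 17.5, against 30.7, 20.4, 16.6 and 13.5 after DMSO. These groups overlapped fully (95% interval of the log2 difference -0.49 to 0.49, adjusted p = 1.00), and the libraries numbered 1 were the highest of both. Beside the 24 h values, stromal markers summed to 4519 to 6301 on OP9-Jag1 and 4262 to 5886 on OP9-Dll4, against 3336 to 4874 on OP9-GFP, with 0 of 10 called in either comparison by limma or edgeR (4 and 1 at an unadjusted p under 0.05). Of 6 cardiomyocyte markers tested, limma called 4 higher on OP9-Dll4 at 24 h (Myl2, Actc1, Myh7 and Ttn) and edgeR called 2. Of all genes, limma called 0.266% higher there. The 6 markers summed to 43.8 to 79.1 on OP9-Dll4, against 29.5 to 33.2 on OP9-GFP and 21.4 to 32.9 on OP9-Jag1. Myl2 and Actc1 averaged a signal of 0.034 each on OP9-GFP. The part of these cell markers in the values of Cdkn1a and Ccnd2 was not tested.

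Cdkn1b, the inhibitor gene best known for holding resting cells out of the cycle, passed in 0 of 15 comparisons by limma and by edgeR without pairing, with 3 at an unadjusted p under 0.05. It read 228, 202 and 201 on rDLL4+RO, against 185, 161 and 142 on rDLL4, with no overlap (0.38 ± 0.14, adjusted p = 0.13). This difference was called with the number as a block (adjusted p = 0.0041) and in a fit of the 2 groups alone (0.021). On rJAG1+RO it read 209, 199.9 and 169, against 168, 175 and 138 on rJAG1, with overlap (0.27 ± 0.14, adjusted p = 0.23, or 0.022 with the number as a block). Against DMSO, rDLL4+RO differed by 0.35 ± 0.14 (adjusted p = 0.34, or 0.024 with the block). The ligands themselves left Cdkn1b near its DMSO mean: 160.4 ± 19.7 on rJAG1 and 163 ± 21.7 on rDLL4, against 168 ± 35.6 on DMSO. After RO4929097 it read 104, 89.8, 82.6 and 71.4 over OP9-GFP, against 88.3, 78.4, 73.0 and 66.7 after DMSO. In each number the inhibited library was higher, while the groups overlapped (0.18 ± 0.11, adjusted p = 0.68, or 0.083 with the block). Over OP9-GFP it read 78.2, 77.8 and 80.2 at 24 h, against 72.8, 66.9 and 72.0 at 6 h (0.16 ± 0.06, adjusted p = 0.062, or 0.032 with the block).

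Myc passed in 0 of 15 comparisons by limma and by edgeR, with 2 at an unadjusted p under 0.05. It read 69.6, 76.0 and 90.4 on rJAG1 and 62.1, 53.3 and 89.9 on rDLL4, against 42.3, 39.0 and 114 on DMSO. DMSO library 3 lay above all ligand libraries and the other DMSO libraries below them. The differences of 0.44 ± 0.32 and 0.22 ± 0.32 did not pass (adjusted p = 0.50 and 0.95). Without DMSO library 3, rJAG1 over DMSO was 0.93 for Myc (adjusted p = 0.013). With RO4929097, Myc read 56.6, 37.8 and 61.7 on rJAG1+RO, against 69.6, 76.0 and 90.4 on rJAG1, a difference of -0.61 ± 0.32 (adjusted p = 0.22, or 0.028 with the block). On rDLL4+RO it read 35.4, 33.1 and 51.2, against 62.1, 53.3 and 89.9 on rDLL4 (-0.76 ± 0.32, adjusted p = 0.18, or 0.013 with the block). On either ligand a fit of the 2 groups alone called the difference (adjusted p = 0.035 on rJAG1 and 0.025 on rDLL4). Neither pair of groups overlapped.

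Over feeders Myc was lower at the later time by value, without passing the test: 143, 129 and 113 on OP9-GFP at 24 h, against 144, 199 and 147 at 6 h (-0.34 ± 0.13, adjusted p = 0.079). It was called without OP9-GFP 6 h library 1 (adjusted p = 0.045), with quantile normalization (0.049) and with the number as a block (0.028). By ligand it averaged 118 ± 5.77 on OP9-Jag1 and 136 ± 5.87 on OP9-Dll4, against 129 ± 14.7 on OP9-GFP at 24 h. The RO4929097 mean over OP9-GFP was 164 ± 13.7, against 174 ± 29.9 after DMSO (-0.08 ± 0.12, adjusted p = 0.90).

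Counted by comparison, few members were called, and their counts are read against the share of all genes called. On rJAG1 over DMSO 2 of 8 members rose, where 4.83% of all genes rose and 9.58% were called in either direction. On rDLL4 over DMSO 2 of 8 rose, where 2.45% of genes rose and 3.5% were called. RO4929097 lowered 2 of 8 members on rJAG1, where 8.78% of genes fell and 18.4% were called, and 2 of 8 on rDLL4, where 5.76% fell and 10.7% were called. For OP9-Jag1 over OP9-GFP at 24 h, 1 of 8 rose, where 1.04% of genes rose and 2.02% were called. For OP9-GFP at 24 h over 6 h, 2 of 8 rose, where 9.45% of genes rose and 19.2% were called, and with so few members that share is near the background. These comparisons share libraries: both ligands share the DMSO group, and each RO4929097 comparison shares its ligand group with the one over DMSO.

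In 8 other comparisons between groups limma called 0 of 8 members, and so did edgeR. They were OP9-Dll4 over OP9-GFP at 24 h (0.511% of genes called, 2 members at an unadjusted p under 0.05), OP9-Jag1 over OP9-GFP at 6 h (0.101%, 1 member) and OP9-Dll4 over OP9-GFP at 6 h (0.0072%, 0 members). Between the feeder ligands, OP9-Dll4 over OP9-Jag1 had 0.0288% of genes called at 24 h and 0% at 6 h, with 0 members at that unadjusted level. The last 3 were rDLL4 over rJAG1 (0.231%, 1 member), rDLL4+RO over DMSO (1.4%, 3 members) and rJAG1+RO over DMSO (0.94%, 2 members). Of the 3 interaction tests, the change of the Jag1 effect and of the Dll4 effect with time called 0.0072% of genes each and the RO4929097 effect on rDLL4 over that on rJAG1 0.0149%, again with 0 members by limma and by edgeR (1, 1 and 0 at an unadjusted p under 0.05).

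**Figure D4:**
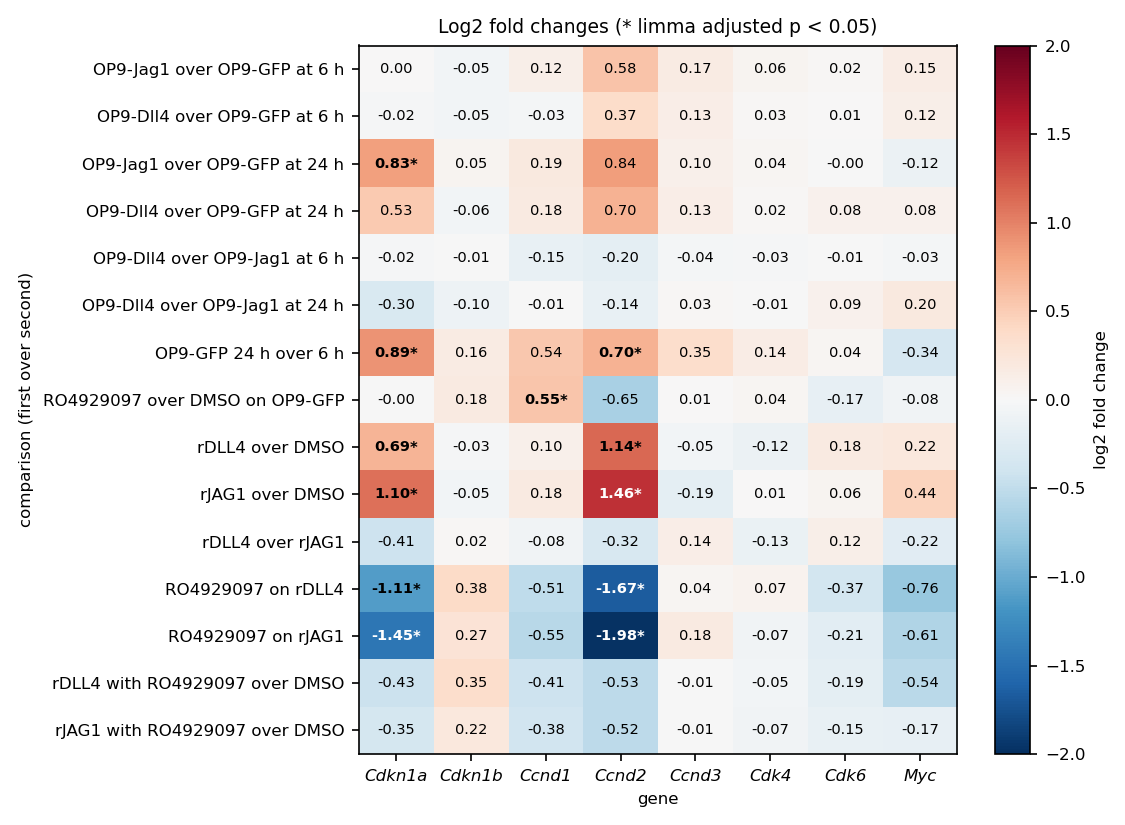
Log2 fold change of each of the 8 genes (columns) in the 15 comparisons between groups (rows, first group over second); colour runs from blue (lower) to red (higher) and an asterisk marks a limma adjusted p under 0.05. The asterisks fall on Cdkn1a (6 comparisons), Ccnd2 (5) and Ccnd1 (1).

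Genes around the members in the pathway were counted by list. Of 20 targets of p53 other than Cdkn1a, 6 rose and 0 fell on rJAG1, with a median log2 change of 0.27, against 0.0014 over all genes, of which 4.83% rose. The 4 with the smallest adjusted p were Phlda3, which restrains the kinase Akt (0.90 ± 0.11), the death receptor gene Fas (0.65 ± 0.13), the stress-response gene Sesn2 (0.57 ± 0.12) and the pro-apoptotic Pmaip1 (0.42 ± 0.10). On rDLL4, 4 of 20 rose and 0 fell, where 2.45% of all genes rose. The 4 were Fas (0.59 ± 0.13), Pmaip1 (0.44 ± 0.10), Phlda3 (0.46 ± 0.11) and Sesn2 (0.45 ± 0.12). RO4929097 on rJAG1 lowered 13 of 20 and raised 1, at a median of -0.47, and on rDLL4 it lowered 7 and raised 1, at a median of -0.37, where the median of all genes was 0.0051 in both and 8.78% and 5.76% of all genes fell. On rJAG1 these were led by Phlda3 (-1.31 ± 0.11), the cyclin G gene Ccng1 (-0.70 ± 0.10) and Perp, which encodes a membrane protein of p53-dependent cell death (-0.81 ± 0.14). Ddit4l, known as an inhibitor of the growth kinase mTOR, rose (1.02 ± 0.16). On OP9-GFP at 24 h over 6 h, 7 of 19 rose and 0 fell, where 9.45% of all genes rose. Eda2r (1.42 ± 0.21) and Trp53inp1 (1.14 ± 0.18) led them. On OP9-Jag1 at 24 h 2 of 19 rose, Phlda3 (0.55 ± 0.09) and Trp53inp1 (0.88 ± 0.18), where 1.04% of all genes rose. With the number as a block, 10 p53 targets were called higher on rJAG1 and 5 on OP9-Jag1 at 24 h. That block also called more of all genes in either direction: 2022 of 13407 on rJAG1 (1285 without it) and 628 of 13886 on OP9-Jag1 (281). After RO4929097 before OP9-GFP, limma and edgeR called 0 of 19, with 1 at an unadjusted p under 0.05.

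Among 28 partners of the members at the G1/S step, Cdkn2b had the smallest adjusted p on both coated ligands and with RO4929097 on each. Cdkn2b, which encodes an inhibitor of Cdk4 and Cdk6, rose on rJAG1 (153.6 against 97.1 on DMSO, 0.65 ± 0.10, adjusted p = 0.00037) and on rDLL4 (131 against 97.1, 0.43 ± 0.10, adjusted p = 0.024). It fell with RO4929097 on rJAG1 (-1.24 ± 0.10, adjusted p = 3.5e-07) and on rDLL4 (-1.02 ± 0.10, adjusted p = 6.5e-06), to 64.3 and 64.0, below DMSO as well (-0.59 ± 0.10 in both, adjusted p = 0.0074 and 0.0069). Cdkn1c, the third gene of the Cdkn1a and Cdkn1b family, went the opposite way: it fell on rJAG1 (-0.79 ± 0.19, adjusted p = 0.014) and on rDLL4 (-0.82 ± 0.19, adjusted p = 0.028), and rose with RO4929097 on rJAG1 (1.36 ± 0.19, adjusted p = 0.00012) and on rDLL4 (1.39 ± 0.19, adjusted p = 0.00020). Cdkn2a rose on rJAG1 (0.43 ± 0.10, adjusted p = 0.011) and fell with RO4929097 on rJAG1 (-0.82 ± 0.10, adjusted p = 2.8e-05) and on rDLL4 (-0.54 ± 0.10, adjusted p = 0.0021). Ccnh rose on rJAG1 (0.38 ± 0.07, adjusted p = 0.0019) and fell with RO4929097 there (-0.32 ± 0.07, adjusted p = 0.0041). Cdkn2c rose with RO4929097 on rJAG1 (0.32 ± 0.10, adjusted p = 0.035) and on rDLL4 (0.34 ± 0.10, adjusted p = 0.039). In all, 4 partners rose and 2 fell on rJAG1, 1 rose and 1 fell on rDLL4, 5 rose and 4 fell with RO4929097 on rJAG1, and 3 rose and 3 fell with RO4929097 on rDLL4. Of all genes, 9.58%, 3.5%, 18.4% and 10.7% were called in these comparisons, in either direction. The medians were -0.06, -0.07, 0.11 and 0.09. Over OP9-GFP at 24 h against 6 h, 8 rose and 1 fell, led by Cdkn2b (1.11 ± 0.14) and Cks1b (0.40 ± 0.07), where 19.2% of all genes were called in either direction. With RO4929097 before OP9-GFP, limma and edgeR called 0 of 28 (3 at an unadjusted p under 0.05). They also called 0 of 28 on OP9-Jag1 and OP9-Dll4 at 24 h (1 and 2) and at 6 h (0 and 0).

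**Figure D5:**
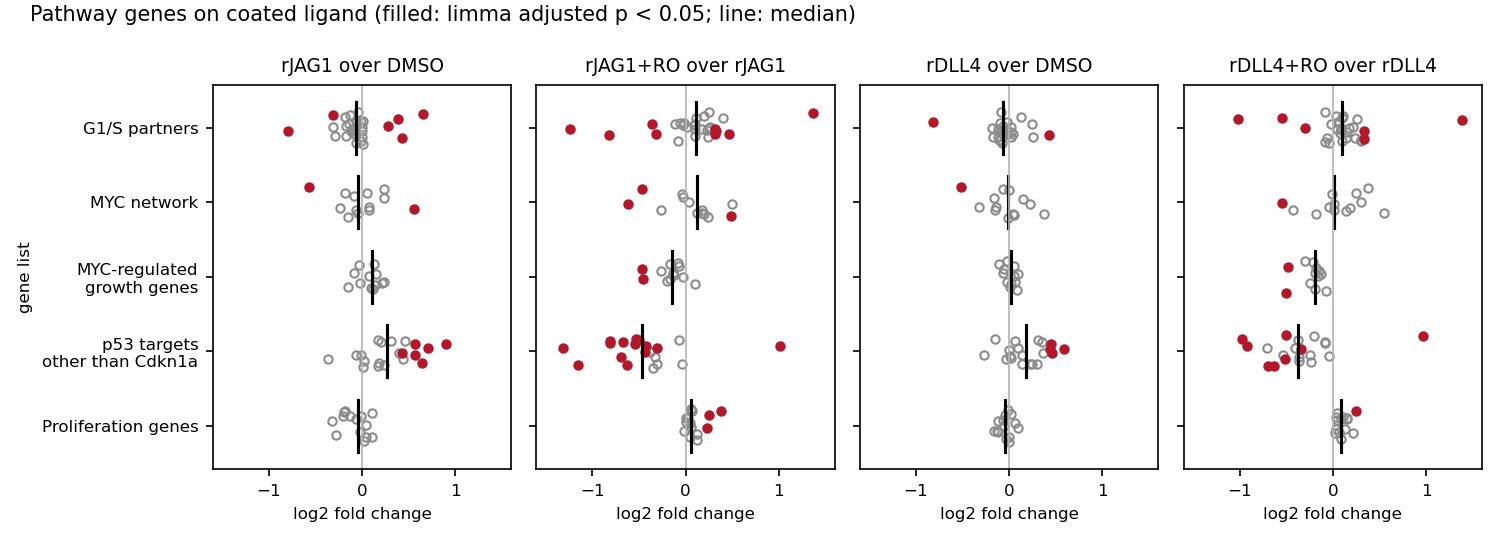
Log2 fold changes (x axis) of the genes of 5 pathway lists (rows) in 4 comparisons of the coated-ligand experiment; filled points have a limma adjusted p under 0.05, open points do not, and the vertical line is the list's median. The p53 targets lie mostly right of 0 on rJAG1 (median 0.27) and left of 0 when RO4929097 is added (median -0.47), and the other lists have medians between -0.19 and 0.12.

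Of 13 genes of the MYC network, Mycn, the sister gene of Myc, fell on rJAG1 (-0.57 ± 0.12, adjusted p = 0.0069) and on rDLL4 (-0.52 ± 0.12, adjusted p = 0.030), and rose with RO4929097 on rJAG1 (0.49 ± 0.12, adjusted p = 0.011). Mycl rose on rJAG1 (0.56 ± 0.15, adjusted p = 0.032) and fell with RO4929097 there (-0.62 ± 0.15, adjusted p = 0.011). Fbxw7, whose product marks Myc and the active Notch fragment for breakdown, fell with RO4929097 on rJAG1 (-0.46 ± 0.09, adjusted p = 0.0013) and on rDLL4 (-0.55 ± 0.09, adjusted p = 0.00058). In 12 growth genes known to be regulated by MYC, 0 were called on either ligand by limma or edgeR (0 at an unadjusted p under 0.05). With RO4929097, 2 fell on each ligand, where 8.78% of all genes fell on rJAG1 and 5.76% on rDLL4. They were the lactate dehydrogenase gene Ldha (-0.47 ± 0.12 on rJAG1, -0.48 ± 0.12 on rDLL4) and the polyamine synthesis gene Odc1 (-0.46 ± 0.14 and -0.50 ± 0.14). Of 14 proliferation genes, 3 rose with RO4929097 on rJAG1: Mki67 (0.38 ± 0.11, adjusted p = 0.021), Aurkb (0.23 ± 0.07, adjusted p = 0.024) and Top2a (0.25 ± 0.08, adjusted p = 0.031). On rDLL4 with RO4929097, Aurkb alone rose (0.25 ± 0.07, adjusted p = 0.025). Of all genes, 9.58% rose in that rJAG1 comparison and 4.91% in that rDLL4 comparison, against which the counts of 3 and 1 of 14 are to be read. On rJAG1 over DMSO limma and edgeR called 0 of 14, with 6 at an unadjusted p under 0.05. With the number as a block 5 were called lower there, where 2022 of 13407 genes were called in either direction. On rDLL4 over DMSO limma and edgeR called 0 of 14, with 2 at an unadjusted p under 0.05. Summed proliferation signal ran over 3331 to 3423 on rJAG1 and 3448 to 3632 on rDLL4, against 3465 to 3758 on DMSO.

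Across libraries, Cdkn1a and Ccnd2 varied together, at r = 0.78 over the 18 libraries of the first experiment, 0.35 over the 8 of the second and 0.96 over the 15 of the third. Cdkn1b and Myc varied oppositely, at r = -0.92, -0.76 and -0.85. Libraries share groups, numbers and time points, so these values describe the libraries and carry no test. The 3 genes whose pattern was most like a member's were ranked by the smaller of its correlations over the first and the third experiment, among 13182 genes. For Cdkn1a they were Slc29a1 (r = 0.97 and 0.95), Synpo (0.96 and 0.95) and Vegfa (0.96 and 0.94), and for Ccnd2 Map1b (0.95 and 0.97), Reps1 (0.96 and 0.94) and Dok1 (0.93 and 0.96). For Ccnd1 they were Sap18b (0.92 and 0.92), Set and Enoph1, and for Myc Fam185a (0.90 and 0.91), Ppan and Tnfaip3. Cdk4 was nearest to Rps14 (0.89 and 0.91), Gm6472 and Ndufs7, and Cdk6 to Actn1 (0.79 and 0.92), Nhlrc2 and Ets1. Cdkn1b was nearest to Zfp260 (0.86 and 0.85), Bicc1 and Zfp395, and Ccnd3 had the weakest likeness, to BC029722 (0.80 and 0.77), Sdhc and Inka2.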

How the data were processed

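RNA-seq was measured in 41 libraries in 3 experiments, each with 1 deposited table of 13886, 12984 and 13407 genes. Per the labels' protocols, PicoPure kits gave the RNA, and NEBNext Ultra kits the libraries. FastQC, cutadapt, RSEM and limma were used on build GRCm38, per the submitters' processing notes, which name them without versions. No annotation release or strand setting is given in the sources used. Deposited values are a normalized signal, and 100% of the values equal (whole reads + 0.5) times a constant of their library, within 0.01 reads, so reads could be recovered. Libraries held 11197893 to 34188335 reads, and 3 reads correspond to a signal of at most 0.266, below every value of the members.

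Log2(signal + 1) was tested with limma 3.58.1 in R 4.3.3, 1 fit per table holding every group, and p-values were adjusted by Benjamini and Hochberg over the whole table. Calls required an adjusted p under 0.05, and no gene was removed. The scripts were tested on simulated data. Alternatives were edgeR 4.0.16 (quasi-likelihood, TMM) on the whole reads, the library number as a block (for co-culture also within each time), a pseudocount of 0.25, a signal of at least 4, quantile normalization, only the groups compared, and leaving out each library. After seeing the data, fits without the libraries numbered 2 at 6 h and a block without DMSO library 3 were added.

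Libraries with the same number deviated together, with r of at least 0.11 for every number in all comparisons between groups but 2. The exceptions were RO4929097 on rDLL4 (r = 0.40, 0.10 and 0.08) and OP9-GFP at 24 h over 6 h (0.10, 0.06 and 0.08). The pairing comes from these correlations, since the labels give only numbers. All members are described. Of each other list, the genes with the smallest adjusted p were named, and likeness was ranked by the smaller of 2 correlations. The members and lists were chosen with earlier results of these data known. Promoters are from RefSeq (GRCm38.p6), where 5 of 8 members matched.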

Additional observations from a re-analysis of the deposited data

Results flagged for a closer look

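Ccnd1 differed in opposite directions with the same inhibitor in 2 experiments. RO4929097 before OP9-GFP raised it by 0.55 on the log2 scale, with all 4 RO4929097 libraries above all 4 DMSO libraries. On coated ligand RO4929097 gave -0.51 on rDLL4 and -0.55 on rJAG1, with all 3 libraries with RO4929097 below all 3 without it in each pair. The difference between the experiments was not tested, since their tables were normalized separately. The coated-ligand differences did not pass their own test, nor with the library number as a block alone. They passed with that block only when DMSO library 3 was also left out, a fit added after seeing the data (adjusted p = 0.0058 on rDLL4 and 0.0026 on rJAG1). On rDLL4 the difference also passed in a fit of the 2 groups alone (0.043). Time with the inhibitor, serum, feeders and ligand all differ between these experiments and cannot be told apart. Across the 8 genes and both groups of the second experiment, 16 sets of 4 libraries were searched for 1 outlying library and 0 had one.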

How the results depend on the processing

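Of 2056 values of the 8 genes under alternatives, 1985 stayed on their side of the threshold, 14 lost a call and 57 gained one; 141 changed sign, 0 of them called in either fit. No member count moved by over 1.5 times with edgeR, the pseudocount, the signal minimum or the fits without the libraries numbered 2 at 6 h.

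With the number as a block, members called were 1 (0 without it) on OP9-Jag1 at 6 h, 2 (1) on OP9-Jag1 and 1 (0) on OP9-Dll4 at 24 h, 2 (1) with RO4929097 before OP9-GFP, 1 (0) for rDLL4 over rJAG1, 4 (2) with RO4929097 on rJAG1, and 2 (0) and 1 (0) for rDLL4+RO and rJAG1+RO over DMSO. In the 2 comparisons where same-numbered libraries were least alike, the block gave 6 (2) for OP9-GFP at 24 h over 6 h and 5 (2) for RO4929097 on rDLL4. All genes called rose too with the block: 82 (14) on OP9-Jag1 at 6 h, 628 (281) and 247 (71) on OP9-Jag1 and OP9-Dll4 at 24 h. They were 427 (118) with RO4929097 before OP9-GFP and 4534 (2660) for OP9-GFP at 24 h over 6 h. On coated ligand they were 118 (31) for rDLL4 over rJAG1, and 3634 (2461) and 2315 (1430) with RO4929097 on rJAG1 and rDLL4. For rDLL4+RO and rJAG1+RO over DMSO they were 587 (188) and 389 (126). A block within each time gave 1 on OP9-Jag1 and 1 on OP9-Dll4 at 6 h, 2 and 2 at 24 h, and 2 and 2 for the change of each effect with time. It called 467, 162, 1512, 808, 182 and 35 of all genes in the same order. Quantile normalization gave 2 on OP9-Jag1 at 24 h. Fits of only the groups compared gave 2 and 1 on OP9-Jag1 and OP9-Dll4 at 24 h, 1 on rDLL4 and 6 with RO4929097 on rDLL4. The block without DMSO library 3 gave 5 on rDLL4, 4 on rJAG1, 2 for rDLL4 over rJAG1, 6 and 5 with RO4929097 on rDLL4 and rJAG1, and 1 each for rDLL4+RO and rJAG1+RO over DMSO. It called 1431 of all genes on rDLL4, 2825 on rJAG1, 313 for rDLL4 over rJAG1, and 3079 and 4330 with RO4929097 on rDLL4 and rJAG1. The cause of these shifts was not tested.

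Leaving out 1 library gave 0 to 1 members on OP9-Jag1 at 24 h, 1 to 4 for OP9-GFP at 24 h over 6 h, 1 to 2 with RO4929097 before OP9-GFP, 1 to 2 on rDLL4 and 2 to 4 on rJAG1. Genes called over all alternatives, leaving out 1 library included, numbered 564 to 2825 on rJAG1 (main 1285), 160 to 1431 on rDLL4 (469), 1690 to 4330 and 929 to 3079 with RO4929097 on rJAG1 (2461) and rDLL4 (1430), 48 to 427 with RO4929097 before OP9-GFP (118), 114 to 1512 on OP9-Jag1 (281) and 10 to 808 on OP9-Dll4 (71) at 24 h, and 1273 to 4534 for OP9-GFP at 24 h over 6 h (2660). The edgeR fit on recovered reads called 1306, 459, 2391, 1395, 104, 272, 46 and 2606 genes in the same order. The least read member value rests on 178 reads.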
